A study of Mus musculus with 2 samples.

Results

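The genes described here encode the catalytic core of the mouse pyruvate dehydrogenase complex and the enzymes that switch it off and on. They were chosen by symbol, and symbol and gene identifier were read from the transcript names of the deposited tables. All 10 were found, each with 1 gene identifier, among 55536 genes. They comprise 4 subunit genes (Pdha1, Pdhb, Dlat and Pdhx), 4 kinase genes (Pdk1, Pdk2, Pdk3 and Pdk4) and 2 phosphatase genes (Pdp1 and Pdp2). The tissue was gastrocnemius, a calf muscle in which fast fibres predominate, from male B6CASTF1/J mice aged 2 months. B6CASTF1/J mice are first-generation hybrids of the B6 laboratory strain and the wild-derived CAST strain. The series held 1 group of 2 libraries of total RNA, named replicate 1 and replicate 2 after their labels, each made from 300 ng of RNA to which ERCC spike-in RNA was added. The labels call the libraries biological replicates 1 and 2, each with technical replicate number 1. They list an own tissue sample for each library under the same donor entry. Whether the samples came from separate mice is not stated. Any contrast of replicate 2 with replicate 1 thus shows how far these tissue samples lie apart, and part of that spread may be technical. No treatment or genotype was compared.

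The pyruvate dehydrogenase complex sits in the mitochondrial matrix and turns pyruvate, the end product of glycolysis, into acetyl-CoA for the citric acid cycle. Pyruvate dehydrogenase kinases phosphorylate its alpha subunit and thereby stop the reaction, and pyruvate dehydrogenase phosphatases remove the phosphate and restart it. In skeletal muscle this switch is known to set how far the fibres burn glucose or fatty acids, with Pdk4 known to rise on fasting.

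The 4 kinases are paralogs, so their coding sequences were compared first, because reads can be assigned to the right gene only where the sequences differ. Between pairs of kinases, 67.0% to 69.4% of aligned coding bases were identical. The coding sequences, taken from GENCODE transcripts, were 1224 nt to 1305 nt long. The longest identical run was 29 nt, between Pdk3 and Pdk4. In an alignment of all 4, 554 of 1193 columns without gaps were the same (46.4%). The 60 nt with the most identical positions are shown, since this is where the kinases are hardest to tell apart. The lines give the coding strand on GRCm38, and capitals mark positions at which the 4 genes do not all have the same base.
Pdk1: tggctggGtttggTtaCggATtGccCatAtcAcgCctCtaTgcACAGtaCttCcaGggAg
Pdk2: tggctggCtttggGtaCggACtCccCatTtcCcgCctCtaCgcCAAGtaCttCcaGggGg
Pdk3: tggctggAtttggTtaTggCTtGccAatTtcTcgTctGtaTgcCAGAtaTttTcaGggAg
Pdk4: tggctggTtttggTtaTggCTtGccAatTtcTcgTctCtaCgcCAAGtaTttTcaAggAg
Here 40 of the 60 positions were identical in all 4 genes. The window crosses from exon 9 to exon 10 in each gene, so the genomic spans include an intron: chr2:71895798-71897704 on the plus strand for Pdk1, chr11:95027921-95028480 on the minus strand for Pdk2, chrX:93777365-93781468 on the minus strand for Pdk3 and chr6:5486734-5487065 on the minus strand for Pdk4. No stretch of 100 nt in any kinase transcript occurred in another gene's transcripts. That held for 9 of the 10 genes. Pdhb was the exception, with 149 of its 4259 windows of 100 nt (3.498%) also found in the processed pseudogene Gm6123, which itself had 0.62 and 0.86 TPM. The phosphatases Pdp1 and Pdp2 shared 63.8% of aligned coding bases, with no identical run over 11 nt.

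Promoter sequence is shown for 3 genes: the 2 genes that differed most between the libraries, Pdk4 and Pdp2, and Pdk2, the abundant kinase that differed least. The windows are RefSeq sequence on GRCm38.p6, 5′ to 3′ on the gene's strand, and they stop before the first annotated exon. Capitals mark the CCAAT box (CCAAT, or ATTGG on the other strand) and the GC box (GGGCGG, or CCGCCC on the other strand).
Pdk4 (chr6:5496310-5496528, minus strand): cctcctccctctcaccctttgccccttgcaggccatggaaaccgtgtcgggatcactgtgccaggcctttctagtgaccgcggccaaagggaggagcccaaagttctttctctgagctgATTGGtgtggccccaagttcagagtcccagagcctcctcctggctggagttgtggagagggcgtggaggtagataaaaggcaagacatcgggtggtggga
Pdp2 (chr8:104591222-104591450, plus strand): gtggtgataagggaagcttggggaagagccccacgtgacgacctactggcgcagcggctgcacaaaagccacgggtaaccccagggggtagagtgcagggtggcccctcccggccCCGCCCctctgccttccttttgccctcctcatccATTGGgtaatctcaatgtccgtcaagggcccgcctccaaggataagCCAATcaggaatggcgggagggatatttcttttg
Pdk2 (chr11:95041372-95041621, minus strand): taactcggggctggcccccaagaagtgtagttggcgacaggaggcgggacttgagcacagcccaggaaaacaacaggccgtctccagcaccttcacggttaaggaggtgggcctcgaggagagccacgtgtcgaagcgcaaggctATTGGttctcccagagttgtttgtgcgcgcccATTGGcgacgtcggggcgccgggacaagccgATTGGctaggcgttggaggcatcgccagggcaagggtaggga
The printed stretch of Pdk4 held 1 CCAAT box, that of Pdp2 held 2 CCAAT boxes and 1 GC box, and that of Pdk2 held 3 CCAAT boxes. Among the other members with a window, Pdhb and Pdk3 also held a CCAAT box, and Pdha1, Dlat, Pdhx and Pdk1 held none. Over all 32851 RefSeq promoter windows, searched on both strands over 250 bases, 33.8% held a CCAAT box and 32.7% a GC box. The letters TATAAA (12.4% of windows), AGGTCA (14.02%), TCAAGGTCA (0.387%) and GTAAACA (3.17%) were in no member's window. AGGTCA is contained in TCAAGGTCA, so those 2 shares overlap. An absent match says only that these letters are not in these 250 bases. A second annotated start of Pdk2 held none of the motifs. GC content over the full windows was 58.8% for Pdk4, 60.8% for Pdp2 and 62.4% for the printed start of Pdk2, against a median of 52.4% over all windows. RefSeq windows were matched for 9 of the 10 genes, and Pdp1 had none.

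The libraries were of similar depth, with expected counts over genes totalling 42724520 in replicate 1 and 42280091 in replicate 2. A count of 0 allows up to 3 reads, which is 0.0699 CPM in replicate 1 and 0.0706 CPM in replicate 2. All 8 muscle markers were abundant, among them Acta1, skeletal actin, at 18494 and 16647 TPM. Markers of other cells were low in sum: 62.4 and 61.5 TPM over 6 endothelial genes, 14.4 and 10.95 over 6 macrophage genes, 6.41 and 3.38 over 6 adipocyte genes and 35.0 and 29.6 over 6 Schwann cell genes. Fibro-adipogenic genes summed to 212 and 199 TPM, with 3 of 6 past 1.5-fold higher in replicate 1 and 1 in replicate 2, and red cell genes to 237 and 216 TPM. The libraries stood apart in fibre markers. All 8 slow fibre markers were past 1.5-fold higher in replicate 2, and their summed level was 1414 TPM in replicate 1 against 3542 TPM in replicate 2.

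Among the subunits, Pdha1 was the most abundant in both libraries, followed by Pdhb, Dlat and Pdhx. No neighbours in this order overlapped in the first kind of deposited table, on which the values rest unless stated. In the second kind Pdhb (181 and 204 TPM) and Dlat (159 and 192 TPM) overlapped, with Pdhb still higher in both libraries. Values are TPM, a share of all transcripts that corrects for transcript length and so allows genes to be compared. Pdha1 (ENSMUSG00000031299.10, GRCm38 chrX:160122209-160138413, minus strand) encodes the alpha subunit of the decarboxylating enzyme, the site that the kinases phosphorylate. It had 222 TPM in replicate 1 and 265 TPM in replicate 2, a mean of 243 ± 29.8 (SD, n = 2). Pdhb (ENSMUSG00000021748.9, chr14:8165996-8173025, minus strand) encodes the beta subunit, which pairs with alpha in the same enzyme. It had 105 and 128 TPM, a mean of 116 ± 16.2 (SD, n = 2). Alpha transcripts thus outnumbered beta transcripts 2.12-fold in replicate 1 and 2.07-fold in replicate 2, although the proteins pair one to one. In the second kind of table the excess was smaller, at 1.66-fold and 1.68-fold.

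Dlat (ENSMUSG00000000168.9, chr9:50634633-50659780, minus strand) encodes the dihydrolipoyl acetyltransferase that forms the core of the particle and passes the acetyl group to coenzyme A. Its level was 66.8 TPM in replicate 1 and 83.8 TPM in replicate 2, a mean of 75.3 ± 11.97 (SD, n = 2). Pdhx (ENSMUSG00000010914.10, chr2:103021075-103073513, minus strand), the binding protein that holds dihydrolipoamide dehydrogenase to the core, was the least abundant subunit. It had 27.0 and 35.1 TPM, a mean of 31.05 ± 5.69 (SD, n = 2). All 4 subunits were higher in replicate 2, yet their proportions hardly moved. Pdha1 made up 52.8% and 51.7% of the summed subunit TPM, Pdhb 24.9% and 25.0%, Dlat 15.9% and 16.4%, and Pdhx 6.42% and 6.86%. The sum itself was 421 TPM in replicate 1 against 511 TPM in replicate 2. The shares depended on the table, with Pdha1 at 44.6% and 43.7% in the second kind. Dlat held 23.6% and 24.6% there, and 9.71% and 10.5% over coding transcripts alone in the first kind.

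**Figure D1:**
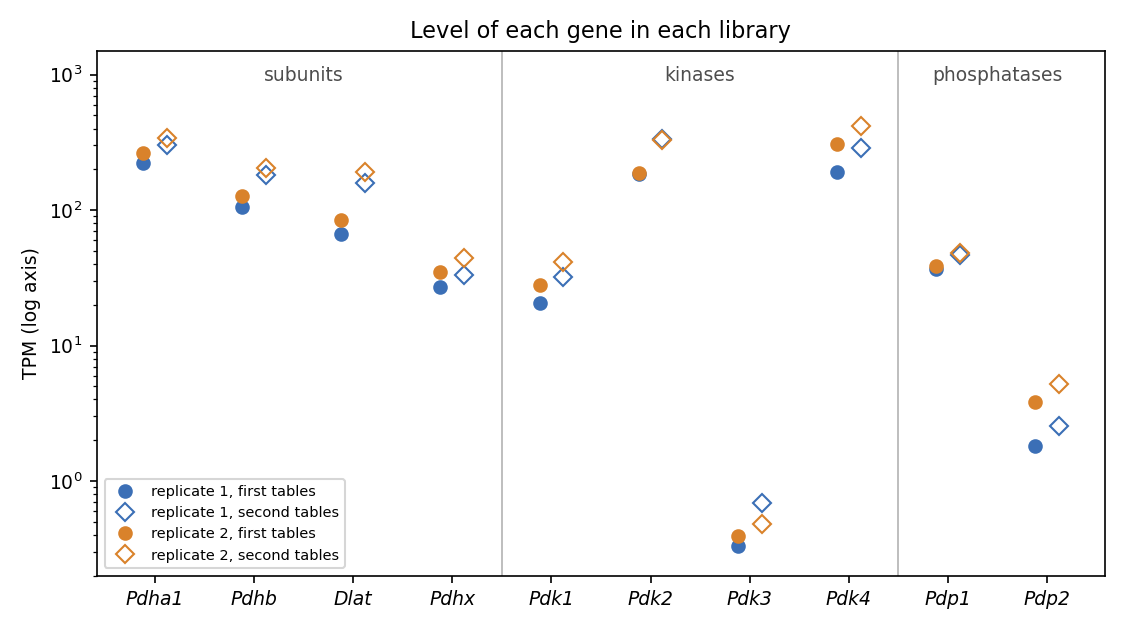
TPM on a log axis of each of the 10 genes in each library, by role; filled points are the first kind of deposited table and open diamonds the second kind. Pdk4, Pdha1 and Pdk2 are the highest 3 genes in either kind, and Pdk3 lies lowest, between 0.33 and 0.687 TPM.

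Of the kinases, Pdk4 and Pdk2 supplied nearly all transcripts, Pdk1 a small part and Pdk3 almost none. Pdk4 (ENSMUSG00000019577.6, chr6:5483351-5496309, minus strand), the kinase known to respond to fasting and fatty acids, had 190 TPM in replicate 1 and 310.0 TPM in replicate 2. Its mean was 249.8 ± 85.1 (SD, n = 2), the widest spread in TPM of the 10 genes. Pdk2 (ENSMUSG00000038967.13, chr11:95026258-95041354, minus strand), a kinase found in most tissues, had 185 and 188 TPM, a mean of 186 ± 2.49 (SD, n = 2). Replicate 1 therefore held Pdk4 and Pdk2 at nearly the same level, with a ratio of 1.03, and replicate 2 held 1.65 times as much Pdk4 as Pdk2.

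Pdk1 (ENSMUSG00000006494.11, chr2:71873224-71903858, plus strand), known as a target of hypoxia signalling, had 20.5 TPM in replicate 1 and 28.0 TPM in replicate 2, a mean of 24.2 ± 5.29 (SD, n = 2). Its range overlapped that of Pdhx. Pdk3 (ENSMUSG00000035232.8, chrX:93764607-93832201, minus strand), like Pdha1 an X-linked gene, was detected at only 23 and 27 reads, or 0.33 and 0.39 TPM. That depth is too low to compare the libraries.

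In shares of summed kinase TPM, Pdk4 held 48.0% in replicate 1 and 58.9% in replicate 2, averaging 53.4% ± 7.70 (SD, n = 2). The Pdk2 share was 46.7% and 35.7%, whereas Pdk1 held 5.19% and 5.31% and Pdk3 0.0836% and 0.0741%. In the first kind of table the libraries thus differed in how far Pdk4 exceeded Pdk2, while the Pdk1 share was close. In replicate 1, Pdk2 exceeded Pdk4 in the second kind (Pdk4 to Pdk2 ratio 0.858) and over coding transcripts alone (0.886). The Pdk3 share rests on too few reads to compare the libraries.

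**Figure D2:**
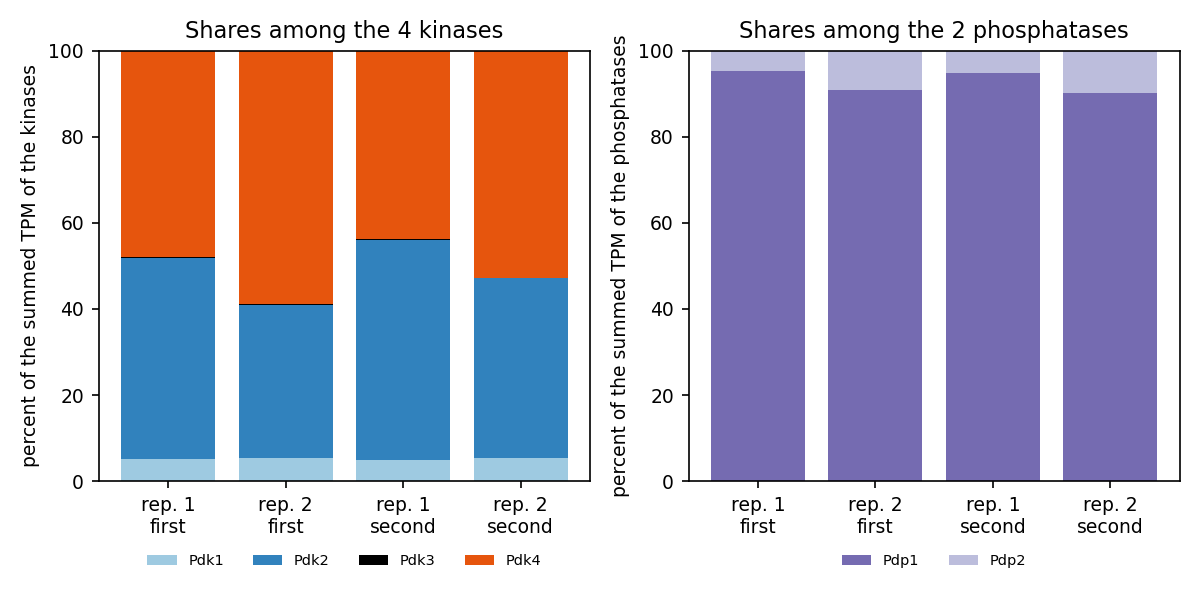
Percent of summed TPM held by each kinase (left) and each phosphatase (right) in each library, for the first and the second kind of table. Pdk4 takes a larger share in replicate 2 than in replicate 1 in both kinds of table, and Pdp1 holds over 90% of the phosphatase TPM in all 4 bars.

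The phosphatases were far less abundant than the kinases, and Pdp1 made up most of them. Pdp1 (ENSMUSG00000049225.14, chr4:11958184-11966452, minus strand), the calcium-stimulated phosphatase, had 36.5 TPM in replicate 1 and 38.4 TPM in replicate 2, a mean of 37.4 ± 1.36 (SD, n = 2). The libraries were close for this gene. Pdp2 (ENSMUSG00000048371.8, chr8:104591451-104599026, plus strand), the phosphatase without calcium control, had 1.81 and 3.84 TPM, a mean of 2.83 ± 1.44 (SD, n = 2), and was the lowest gene but Pdk3. Pdp1 exceeded Pdp2 20.1-fold in replicate 1 and 9.997-fold in replicate 2. Summed kinase TPM was 395 and 526, and summed phosphatase TPM 38.3 and 42.2. Kinase transcripts were therefore 10.3 times phosphatase transcripts in replicate 1 and 12.5 times in replicate 2. Set against the subunits, kinase TPM was 0.937 of subunit TPM in replicate 1 and 1.03 in replicate 2. The summed transcript level of the 4 kinases was thus about that of the 4 subunits. These are transcript levels, and protein or enzyme activity was not measured.

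Ordered by mean TPM in the first tables, Pdk4 led, and then came Pdha1, Pdk2, Pdhb, Dlat, Pdp1, Pdhx, Pdk1, Pdp2 and Pdk3. Pdk4 and Pdha1 overlapped, with Pdk4 lower than Pdha1 in replicate 1 and higher in replicate 2, and Pdhx and Pdk1 overlapped. The ranges of all other neighbours in these tables were separate. The top of the order changed with the table. In the second tables Pdk2 came between Pdk4 and Pdha1, and at 332 TPM it exceeded the 300.2 TPM of Pdha1 in replicate 1. There Pdk4 overlapped Pdk2, Pdk2 overlapped Pdha1, Pdhb overlapped Dlat and Pdhx overlapped Pdk1. Over coding transcripts alone Pdha1 led Pdk4 in both libraries, with 218 and 259.8 TPM against 158 and 252 TPM, and the ranges of Pdha1 and Pdk4, Pdk4 and Pdk2, and Dlat and Pdp1 overlapped. From Pdhb down, the order of means was the same in all 3. With 2 libraries a pattern is a single ratio, so no genes were sought whose pattern is like that of a member.

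To compare the libraries, read counts were scaled by TMM, a method that equalises the bulk of genes, and given as the log2 ratio of replicate 2 over replicate 1. Intervals are exact 95% intervals that cover counting error only, and there is no replicate check. A gene was compared where its counts summed to at least 200, and it was called past a 1.5-fold difference in either direction. This was met by 10054 genes, of which 3.76% were past 1.5-fold higher in replicate 2 and 1.65% past 1.5-fold higher in replicate 1. Of the 10 members, 9 passed the count minimum, 2 were past 1.5-fold higher in replicate 2 and 0 in replicate 1. All 9 ratios were above 0, as were those of 52.0% of all compared genes. All 9 intervals lay above 0, as did those of 23.0% of all compared genes. The median ratio of the 9 was 0.43 and that of all compared genes 0.01.

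Pdp2 differed most, and it alone was past 2-fold, as were 1.21% of compared genes in this direction and 0.308% in the other. It had 348 reads in replicate 1 and 738 in replicate 2, a log2 ratio of 1.13 (interval 0.95 to 1.32) or 2.19-fold, and 0.845% of compared genes were at least as high. Pdk4 came next, with 16939 and 27400 reads, a log2 ratio of 0.74 (0.71 to 0.77) or 1.67-fold, a height reached by 2.51% of genes. A kinase and a phosphatase with opposing activities were thus the 2 genes past 1.5-fold, both in the same direction. The other kinases split, with Pdk1 at 2487 and 3367 reads (0.49, 0.41 to 0.56) and Pdk2 at 13296 and 13646 reads (0.09, 0.05 to 0.12). Pdk2 was the member nearest to equality, and 35.1% of compared genes had a ratio at least as high.

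The subunits lay close together, and their order by ratio was the reverse of their order by level. Pdhx had 1656 and 2189 reads (log2 ratio 0.45, interval 0.36 to 0.54), Dlat 5690 and 7419 reads (0.43, 0.38 to 0.48), Pdhb 4989 and 6126 reads (0.34, 0.29 to 0.40) and Pdha1 20664 and 24645 reads (0.30, 0.28 to 0.33). Each was 1.23-fold to 1.37-fold higher in replicate 2, short of the 1.5-fold limit, and the intervals of neighbours in this order overlapped. Pdp1 was at 3181 and 3451 reads (0.17, 0.10 to 0.24). Pdk3 was below the count minimum, with a ratio of 0.28 and an interval from -0.58 to 1.15 that includes lower as well as higher levels in replicate 2.

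**Figure D3:**
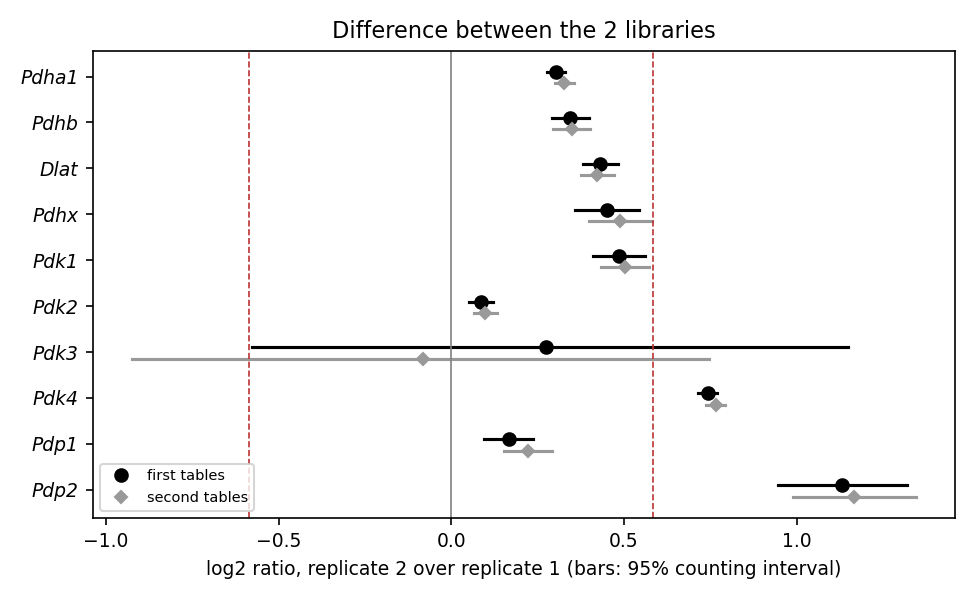
Log2 ratio of replicate 2 over replicate 1 for each gene, with 95% counting intervals, for the first (black) and second (grey) kind of table; dashed lines mark 1.5-fold either way. Pdk4 and Pdp2 lie beyond the right-hand line in both kinds, and the wide interval of Pdk3 crosses 0.

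**Figure D4:**
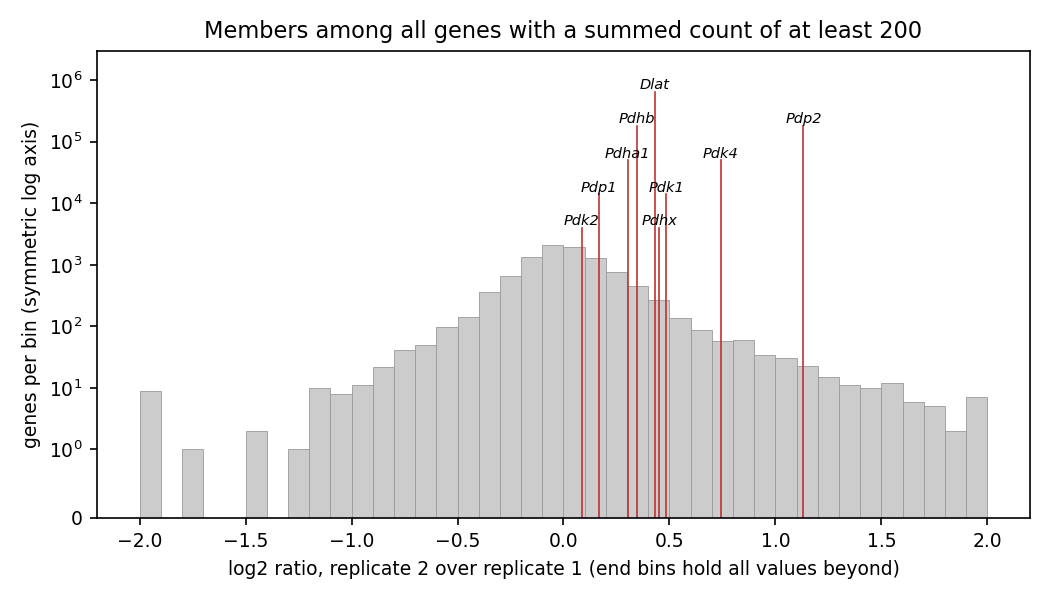
Histogram of the log2 ratios of all 10054 compared genes on a symmetric log axis of genes per bin, with the 9 compared members as red lines whose heights only separate the names. All 9 lie above 0, from 0.09 for Pdk2 to 1.13 for Pdp2.

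The slow fibre markers moved the same way as Pdk4, Pdp2 and the other members. All 8 were past 1.5-fold higher in replicate 2, against 3.76% of all compared genes. The median log2 ratio of the 8 was 1.36, within a range of 1.16 to 1.51. Among them, Myl2, a slow myosin light chain, had 304 and 800 TPM, and Tnni1, slow troponin I, had 72.0 and 198 TPM. Of 8 fast fibre markers, 6 were below 0 and 2 were past 1.5-fold higher in replicate 2, with a median of -0.40 and summed levels of 32915 and 26058 TPM. Those 2 were the fast myosins Myh1 (575 and 1076 TPM) and Myh2 (485 and 948 TPM), while Myh4, the myosin of the fastest fibres, had 11267 and 8431 TPM. None of the 8 slow markers was at 0 in either library. The part of fibre type in the differences of Pdk4, Pdp2 and the subunits was not tested, and in bulk RNA more fibres of a type cannot be told apart from more RNA per fibre.

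The remaining parts of the complex were then examined. Dld, the dihydrolipoamide dehydrogenase shared with sister complexes, had 71.1 TPM in replicate 1 and 88.4 TPM in replicate 2, a log2 ratio of 0.43 (0.38 to 0.48). That is the ratio of Dlat, and in the first tables the level of Dlat was 0.9405 and 0.947 of the level of Dld. Which of the 2 was higher depended on the table, since the same quotient was 1.29 and 1.28 in the second tables and 0.578 and 0.579 over coding transcripts alone. Pdpr, the regulatory subunit of the phosphatase, had 43.6 and 47.95 TPM (ratio 0.19, 0.14 to 0.23), slightly more than Pdp1 itself, which was 0.836 and 0.801 of it. Pdha2, the testis form of the alpha subunit, had 0 reads in both libraries. Its coding sequence is 75.6% identical to that of Pdha1, with no identical run over 20 nt.

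Genes that supply the complex with lipoate, thiamine diphosphate and iron-sulfur clusters differed little. Of 10 listed genes, 8 passed the count minimum, and 7 ratios were above 0 and 1 below, with a median of 0.12. In either direction 0 were past 1.5-fold, against 3.76% of all compared genes higher in replicate 2 and 1.65% higher in replicate 1. The most abundant, Bola3, an iron-sulfur assembly factor, had 96.2 and 109 TPM (0.23, 0.14 to 0.33). Iba57, of the same assembly pathway, had the highest ratio at 0.30 (2.62 and 3.36 TPM). Lipt1, a lipoyl transferase, had the lowest at -0.10 (3.03 and 2.92 TPM, interval -0.46 to 0.27).

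Genes that decide the fate of pyruvate and lactate went both ways. All 8 were compared, 2 were past 1.5-fold higher in replicate 2 and 0 in replicate 1, and the median ratio was 0.33. Over all compared genes, 3.76% and 1.65% were past 1.5-fold in these directions. Ldhb, the lactate dehydrogenase subunit of oxidative tissue, had 117 TPM in replicate 1 and 392 TPM in replicate 2, a ratio of 1.74 (1.69 to 1.79). Ldha, the glycolytic subunit, was the most abundant at 1136 and 948 TPM (-0.21, -0.22 to -0.19). The lactate transporters divided likewise, Slc16a1 with 8.19 and 13.0 TPM (0.72, 0.61 to 0.82) and Slc16a3 with 188 and 138 TPM (-0.37, -0.41 to -0.33). Cs, citrate synthase, which uses the acetyl-CoA made by the complex, had 212 and 251 TPM (0.29, 0.27 to 0.32). The mitochondrial pyruvate carrier genes, named after their values were seen, had ratios of 0.40 for Mpc1 and 0.36 for Mpc2, close to those of the subunits.

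Of 12 transcription factors and coactivators known to act on Pdk4, 11 were compared, and the median ratio was 0.12. Of the 11, 4 were past 1.5-fold higher in replicate 2 and 0 in replicate 1, against 3.76% and 1.65% of all compared genes. Ppara, a fatty acid receptor, had 6.03 TPM in replicate 1 and 15.3 TPM in replicate 2, a ratio of 1.39 (1.25 to 1.53). Esrrb, an estrogen-related receptor, had 2.13 and 5.13 TPM (1.33, 1.12 to 1.54). The other 2 past the limit, named after their values were seen, were Esrrg at 1.097 and the coactivator Ppargc1a at 0.69. In contrast, the glucocorticoid receptor Nr3c1 had 29.5 and 23.1 TPM (-0.29, -0.35 to -0.23), and Foxo1, a forkhead factor, had 12.25 and 9.79 TPM (-0.27, -0.34 to -0.20). Klf15, a glucocorticoid-induced factor, was at 21.3 and 20.03 TPM (-0.04, -0.14 to 0.06). The most abundant of the 12, Esrra, had 31.4 and 40.8 TPM (0.42, 0.34 to 0.50).

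A second kind of deposited transcript table, summed to genes, gave higher levels for all 10 genes and left the main differences in place. Pdk4 had 285 and 417 TPM, and Pdk2 332 and 330.3 TPM. In that table Pdk2 thus exceeded Pdk4 in replicate 1, with a Pdk4 to Pdk2 ratio of 0.858, and fell short of it in replicate 2, with a ratio of 1.26. Dlat differed most between tables, with 159 and 192 TPM in the second, which is 2.38 and 2.29 times its level in the first tables. Across 10731 genes the median of this quotient was 1.49 in replicate 1 and 1.42 in replicate 2, so higher levels in the second tables were common. The log2 ratio between libraries was 0.77 for Pdk4 and 1.17 for Pdp2, both again past 1.5-fold, against 4.03% of 10225 genes past it in that direction. All 9 members compared were again above 0, as were 55.0% of those genes. Only Pdk3 changed sign, to -0.08 on 0.687 and 0.480 TPM, at a depth where neither sign can be read.

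The tables also parted in how they assigned reads to transcripts. Of 46 annotated member transcripts, 18 are protein coding. Among the 18 is a Pdhx transcript of 655 nt whose coding sequence has neither a start nor a stop codon. It was counted as coding here. Its share of Pdhx TPM was 33.5% and 31.8% in the first tables and 19.5% and 23.1% in the second. The leading transcript by mean TPM was the same in both kinds of table for 9 of the 10 genes. For Dlat, the coding transcript of 4035 nt held 55.5% and 58.4% of the gene's TPM in the first tables, but 32.7% and 33.03% in the second. A transcript of 770 nt not annotated as coding held 41.8% and 38.6% in the first tables and 23.1% and 34.2% in the second. In replicate 2 of the second tables it thus exceeded the coding transcript, which led there only by the mean. A short retained intron of 526 nt held 0.808% and 0.501% in the first tables and 29.4% and 26.4% in the second. The coding transcript itself was at 37.1 and 48.96 TPM in the first and 52.0 and 63.4 TPM in the second.

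Pdk4 and Pdk2 were each led by 1 coding transcript. A transcript of 3484 nt held 74.0% and 73.1% of Pdk4 in the first tables and 66.4% and 70.9% in the second. A shorter transcript of 573 nt took 9.54% and 8.20% in the first and 29.3% and 24.2% in the second. It is annotated as coding and counted as such here, but its coding sequence of 328 nt ends without a stop codon. A retained intron of 412 nt took 16.5% and 18.7% in the first and 4.37% and 4.87% in the second. The coding transcript of Pdk2, of 2246 nt, held 96.8% and 97.6% of Pdk2 in the first tables and 73.4% and 71.8% in the second. Counting coding transcripts alone in the first tables, a choice made after the data were seen, the ratio of Pdk4 to Pdk2 was 0.886 in replicate 1 and 1.37 in replicate 2. Which of the 2 kinases led in replicate 1 therefore depended on the transcripts counted, and in replicate 2 Pdk4 led in each of these counts.

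For Pdp1 the tables did not give the same leading transcript. All 6 Pdp1 transcripts are coding, with coding lengths from 1617 nt to 1794 nt. In the first tables a transcript of 1881 nt led in replicate 1 with 33.8%, and one of 2506 nt led in replicate 2 with 32.3%. In the second tables a transcript of 2635 nt, which has the longest coding sequence, held 80.0% and 80.9%, and that of 2506 nt held 0%. The posterior standard deviation of the count of the 2506 nt transcript was 238 reads in replicate 1, on a posterior mean of 502 reads, so the split between these transcripts was poorly determined. The sum over Pdp1 differed little between libraries in either table.

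**Figure D5:**
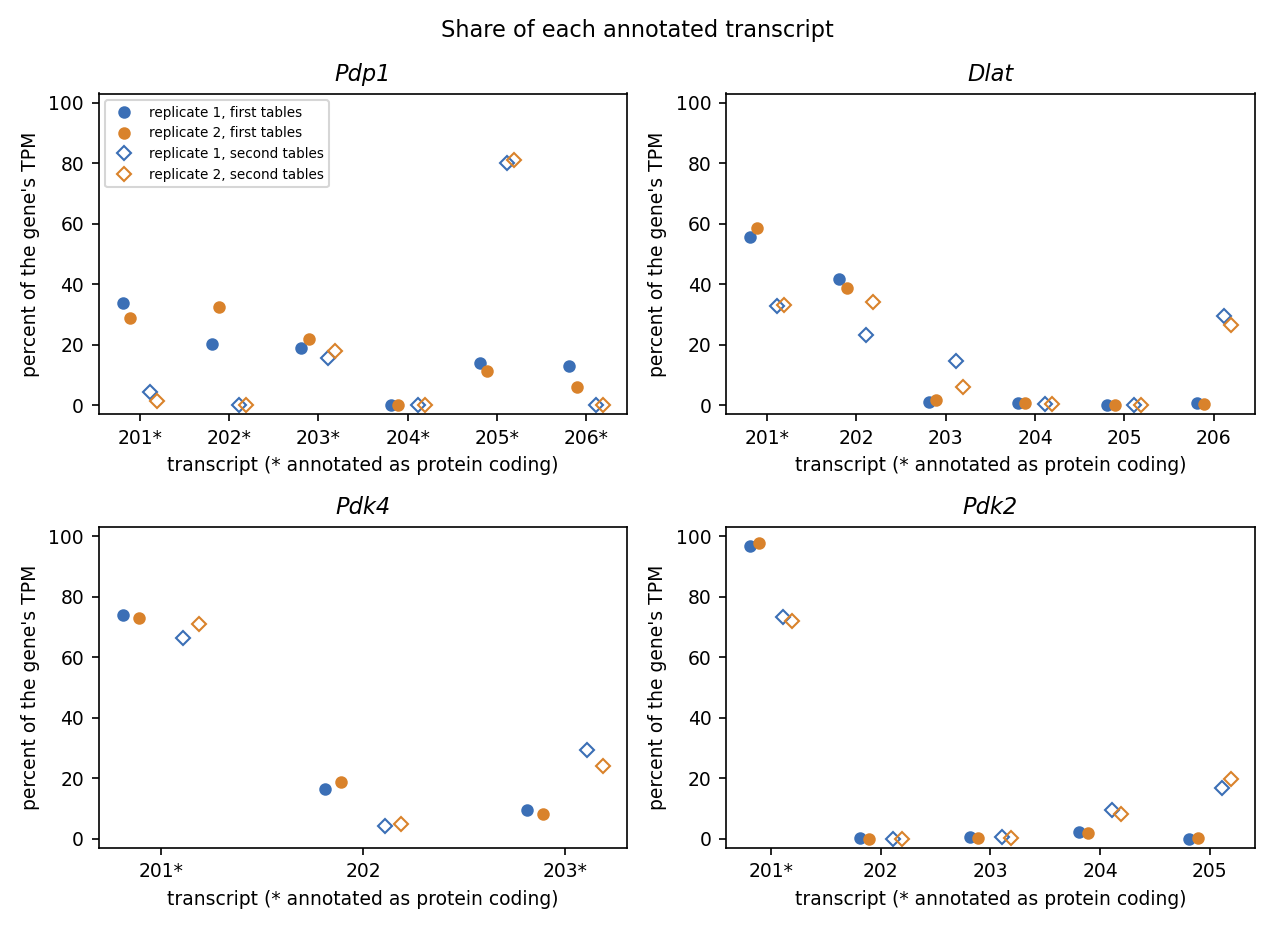
Percent of each gene's TPM held by each annotated transcript of Pdp1, Dlat, Pdk4 and Pdk2, by library and kind of table; an asterisk marks protein-coding transcripts. Filled points and open diamonds lie far apart for the Pdp1 transcript with the longest coding sequence, for the one at the left-hand end of the Pdp1 panel and for the retained intron at the right-hand end of the Dlat panel, while the 2 libraries lie close together within a kind of table for most transcripts.

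Other genes overlap 2 members. Map3k15 lies on the opposite strand with exons that overlap those of Pdha1, and was at 0.10 and 0.14 TPM. The antisense gene Gm11513 overlaps Pdk2 on the opposite strand, without exon overlap, and was at 0 TPM in both libraries. No source used here says whether counting was by strand, and both neighbours were far below the members they overlap.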

How the data were processed

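Total RNA of 2 gastrocnemius libraries was analysed from tables deposited by the authors. One kind, called the first tables, gives expected counts and TPM for genes and transcripts per the file headers, with posterior means, posterior standard deviations and interval bounds, read here as scores deposited by the authors. The other kind, the second tables, gives estimated counts and TPM of transcripts only, per the file headers, and was summed to genes. The deposited notes name the mm10 assembly and GENCODE M21. No source used here gives the programs, their versions or the use of strand. Reads of CAST alleles may match the B6-type reference less well, and alleles were not separated.

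Entries that name no gene were left out of the ratios. Expected counts were rounded and scaled by TMM (edgeR 4.0.16, R 4.3.3) with 0.5 added, and ratios were given exact Clopper-Pearson 95% intervals (scipy 1.17.1), which cover only counting error, reads not being independent molecules. The calculation was tested on simulated data that held counting error only, so the test says nothing about spread between samples. With 1 group no p-value was computed. Called means past 1.5-fold at a summed count of at least 200. Coding sequences were aligned with Biopython 1.88 and MAFFT 7.526. A planned protein alignment was not run, and coding sequence was compared in its place. Alternatives were ERCC, total-count and DESeq2 (1.42.0) scaling, the second tables, posterior means, a larger added count, other count minimums and folds, TPM over genes longer than 300 nt, and coding transcripts alone.

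The members and gene lists were chosen with earlier results of these data known. Named genes are all 10 members and, from each list, genes at a mean of at least 1 TPM: at most the 3 most abundant and the 2 farthest ratios each way. Exceptions are stated.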

Additional observations from a re-analysis of the deposited data

How the results depend on the processing

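All 10 log2 ratios kept their sign under the other scalings, the second tables, posterior mean counts and a larger added count, except that of Pdk3, which ranged from -0.08 to 0.33. Pdk4 ranged from 0.71 to 0.79, Pdp2 from 1.099 to 1.18 and Pdk2 from 0.05 to 0.14. At a 2-fold limit in place of 1.5-fold, 1 member (Pdp2) rather than 2 was past it. The log2 of kinase over phosphatase TPM was 3.503 ± 0.19 (SD, n = 2), 3.81 in the second tables and 3.31 over coding transcripts alone, an alternative chosen after seeing the data. Leaving out a library only returns the value of the other, so it is no separate check. It gave 3.37 to 3.64 for the log2 of kinase over phosphatase TPM and 48.0% to 58.9% for the Pdk4 share of kinase TPM. Of 60 alternative values of mean TPM and 46 of transcript shares, 23 and 32 moved by more than the spread (SD) between the libraries. The 60 include means with a library left out, which with 2 libraries cannot move past that spread. The other alternatives therefore moved more often than 23 of 60. Dlat was among those that moved, with a mean of 75.3 TPM against 175 in the second tables and 43.0 over coding transcripts alone. The cause was not tested. Genes of up to 300 nt held 34.4% and 31.6% of all TPM, and with TPM taken over longer genes alone the mean of 9 of the 10 members moved, for example to 375 for Pdk4 and 367 for Pdha1. No paired analysis was possible because there was 1 group. Depth limits Pdk3 alone among the members.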

Other observations

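The sister complexes that share Dld with pyruvate dehydrogenase, which oxidise 2-oxoglutarate and branched-chain keto acids, had ratios above 0 for all 7 compared genes of 8 listed, with a median log2 ratio of 0.51. Of these, 3 were past 1.5-fold higher in replicate 2 and 0 in replicate 1, against 3.76% and 1.65% of all compared genes. Ogdh, the first enzyme of the 2-oxoglutarate complex, had 243 TPM in replicate 1 and 308 TPM in replicate 2 (0.38, interval 0.36 to 0.40), and Dlst, its core enzyme, 96.8 and 123 TPM (0.41, 0.37 to 0.46). These values lie among those of the pyruvate dehydrogenase subunits. The branched-chain complex has a kinase and a phosphatase of its own, and they parted. The phosphatase Ppm1k had 4.29 and 7.67 TPM (0.81, 0.66 to 0.96), and the kinase Bckdk 66.2 and 61.5 TPM (0.03, -0.04 to 0.09). Bckdhb, its beta subunit, had 13.0 and 24.45 TPM (0.75, 0.60 to 0.91), and Dbt, its core enzyme, named after its values were seen, had a ratio of 0.63.

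Genes of fatty acid use that share regulators with Pdk4 were mostly higher in replicate 2. Of 12 listed genes, 10 were compared, and the median ratio was 0.82. Of the 10, 6 were past 1.5-fold higher in replicate 2 and 0 in replicate 1, against 3.76% and 1.65% of all compared genes. Fabp3, the fatty acid binding protein of heart and oxidative muscle, had 216 and 664 TPM (1.67, 1.63 to 1.71), and Lpl, lipoprotein lipase, had 123 and 342 TPM (1.53, 1.504 to 1.56). Acadm, which oxidises medium-chain fatty acids, had 113 and 186 TPM (0.87, 0.82 to 0.92). Ucp3, a mitochondrial carrier known to rise with Pdk4 on fasting, had 55.3 and 50.7 TPM (-0.09, -0.15 to -0.03), the only one of the 10 below 0. The slow fibre markers given with the member ratios moved the same way as the genes that were higher, and their part in this was not tested.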
